A study of Mus musculus with 2 samples.

Results

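The stretch described here is the end of mouse chromosome 13 in the build mm9, from base 119200001 to the last base that the files list, 120284312, which is 1084312 bases. It was defined by its position, in the expectation that it holds the Tcstv genes Tcstv1 and Tcstv3, with earlier results of these data known. All covered blocks in it were taken, a block being an unbroken run of bases with a depth above 0 in either library. There were 217 such blocks, of 801091 in the whole genome, and 34989 lay on the rest of chromosome 13.

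The study sorted mouse embryonic stem (ES) cells that carry 2C::tomato, a fluorescent reporter, by flow cytometry into reporter-positive (2C::tomato+) and reporter-negative (2C::tomato-) cells and sequenced the mRNA of each. Both populations came from the same kind of cells, Kdm1a FL/FL with CreERT on a mixed strain background, so both carry the floxed alleles of the gene of the histone demethylase LSD1. Both were also grown on gelatin in ES-KOSR medium with hygromycin. There was 1 library per population, so differences below cannot be set against replicates, p-values are left out, and each statement describes these libraries.

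The Tcstv genes are a small mouse family of closely similar genes active in the embryo at the 2-cell stage. A small, changing fraction of ES cells in culture transcribes genes of that stage, together with the endogenous retrovirus MERVL, whose promoter is the basis of 2C reporters. Closely similar gene copies are hard to separate by short reads, since a read can match several of them.

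The coverage tracks decode exactly into ungapped alignments of 72 bases, 37059813 in the positive and 33833215 in the negative library. Levels below are alignments per 1000000 of each library's own total (APM). A ratio is the positive library's share over the negative library's share, with a 95% exact (Clopper-Pearson) interval in parentheses. As the reads carry no molecular identifiers they may not be independent molecules, and the intervals cover counting error only and are too narrow.

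The expected genes could not be identified in the region. The 2 genes whose exon structure matched the covered blocks most closely were Nnt and Paip1, and 4833420G17Rik matched less well. Nnt encodes the mitochondrial nicotinamide nucleotide transhydrogenase, which couples the proton gradient to NADPH production. Paip1 encodes a protein that binds the poly(A)-binding protein and acts in translation. No block could be given to Tcstv1 or Tcstv3, so no level of these genes is reported.

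The names rest on structure, since no annotation or genome of mm9 was at hand. Exon lengths and the distances between exons of GENCODE M21 transcripts, made for mm10, were slid along the region, with no coordinate carried between builds. Of 317 chromosome 13 genes with at least 8 exons of 72 bases or more, 3 had at least 8 inner exon edges within 8 bases of a block edge and over 50% of the alignments of their span inside exons. These settings were reached after several others had been tried and their outcomes seen. A stricter rule written first, that block lengths equal exon lengths, was checked only on these 3 genes as placed, and none met it. Nnt and Paip1 were among the genes found by each of the 6 tolerant versions recorded. These versions used the same blocks and some contain others, so they are not separate tests. The gene 4833420G17Rik was missed by 1 of the 6 versions. Its 11 matched edges were no more than the 11 of the best gene placed there with few alignments inside its exons.

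For Nnt, 29 of 32 inner edges matched, all 17 exons held alignments, and 93.3% of the 1015 alignments in the span lay inside exons. The match put Nnt at chromosome 13, 120124255 to 120197804, on the minus strand of mm9. For Paip1, 15 of 18 inner edges matched and 81.6% of 1084 alignments lay inside exons, at 120217728 to 120247024 on the plus strand. For 4833420G17Rik, 11 of 22 inner edges matched and 75.2% of 1029 alignments lay inside exons, at 120251591 to 120274924 on the plus strand. The 3 placements did not overlap and lay in the order that the genes have in GENCODE M21. In that order the Tcstv genes follow later, after Hmgcs1. On the unlocalised chromosome 13 sequence of mm9, 14 of 17 inner edges of Hmgcs1 matched and 98.4% of the alignments in its span lay inside exons. This does not show where the Tcstv genes lie in mm9.

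The fit in length of a covered block to an exon can be seen in 2 coding exons, printed from the GENCODE M21 transcripts of GRCm38. Both are among the closer fits of their genes, and other exons fit less well. The match used only lengths and distances. The tracks hold no bases, so the printed bases were not compared with any read or block. Capitals mark the first and last 10 bases, which lie at the exon edges. The Nnt exon has 180 bases and its block, 120155135 to 120155317, has 183. The Paip1 exon has 118 bases and its block, 120239498 to 120239621, has 124.
Nnt exon 12: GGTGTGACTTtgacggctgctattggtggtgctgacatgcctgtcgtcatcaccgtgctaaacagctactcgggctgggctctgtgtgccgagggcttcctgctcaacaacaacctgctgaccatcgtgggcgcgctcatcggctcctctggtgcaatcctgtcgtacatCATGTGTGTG
Paip1 exon 8: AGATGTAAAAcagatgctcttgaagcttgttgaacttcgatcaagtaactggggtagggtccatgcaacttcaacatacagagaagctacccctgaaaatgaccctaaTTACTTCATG

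Tcstv1 and Tcstv3 have 2 exons each in GENCODE M21, too few for their structure to be told apart. The best placement of each of the 7 Tcstv-family genes searched overlapped the span matched to 4833420G17Rik. Other placements were not examined, and 76 blocks belong to none of the 3 matched genes, so the search does not show that Tcstv transcripts are missing from the region. Whether alignments from Tcstv transcripts lie elsewhere in the tracks was not analysed here.

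Over the whole region the libraries had nearly the same share of alignments. The positive library had 1758 alignments, 47.4 APM, and the negative library had 1636, 48.4 APM. The ratio was 0.981 (0.917 to 1.05), so a difference was not detectable beyond counting error.

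Coverage was sparse and lay almost wholly at the far end. Covered bases made up 2.56% of the region. Of 109 windows of 10 kb, 60 held no alignment and 16 held at least 20. Exons of the 3 matched genes held 77.0% of the alignments, and a further 15.2% lay in the spans of these genes but not wholly inside exons.

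**Figure D1:**
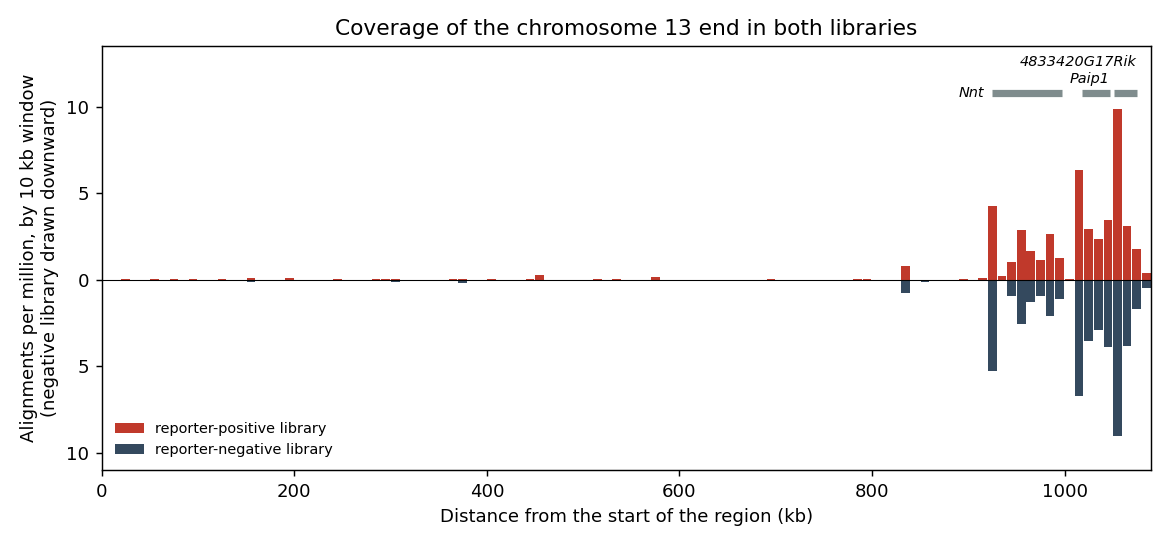
Alignments per 1000000 (APM) in each 10 kb window against the distance from the start of the region in kb, with the positive library drawn upward and the negative library downward, and grey bars for the spans of the 3 matched genes. Nearly all coverage lies over the 3 genes, and both libraries have a similar profile.

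The 924254 bases before Nnt held 80 alignments in the positive and 68 in the negative library, 4.36% of the total. The largest count there was in 1 block of 78 bases at 120039716 to 120039793, with 30 and 24 alignments that start at only 4 positions. The same start pattern was found on chromosome X from base 114777298 in the opposite orientation, so these alignments cannot be placed. Without it, 55 blocks held 50 and 44 alignments, at a ratio of 1.04 (0.678 to 1.59), and none held more than 7.

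No window of the region passed the size rule. A window or block was called if its ratio was at least 2-fold in either direction, its interval excluded 1 and it held at least 20 alignments. None of the 16 windows was called higher, against 4.62% of 48349 windows of the genome, and none was called lower, against 0.827%. All 16 intervals included 1, and the ratios ran from 0.752 to 1.32 with a median of 1.07, beside a genome median of 1.03. At 4-fold the genome shares were 1.69% higher and 0.062% lower, and again no window of the region was called.

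Single blocks spread more widely. Of 37 blocks with at least 20 alignments, 1 was called higher, where 3.22% of 103461 blocks of the genome were, and 1 was called lower, where 1.7% were. These shares of 2.7% each are near the background. No block was called at 4-fold, where 0.98% of the genome's blocks were higher and 0.131% lower. The block ratios ran from 0.476 to 2.11 with a median of 0.989, and 34 of 37 intervals included 1.

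**Figure D2:**
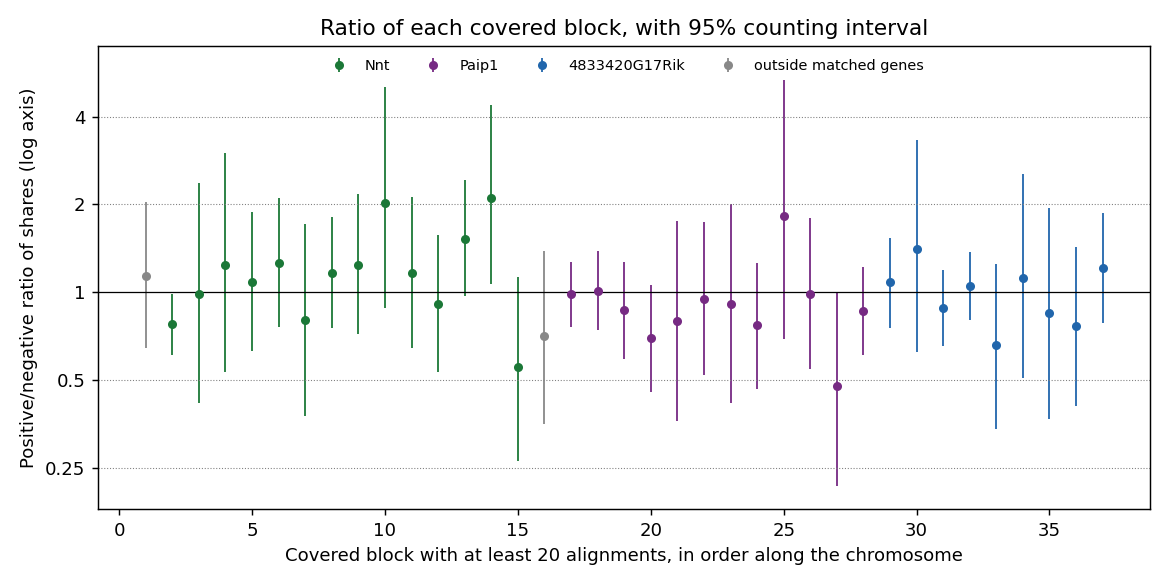
Ratio of the positive to the negative share (log axis) for each of the 37 blocks with at least 20 alignments, in order along the chromosome, with bars for the 95% counting interval and colours for the matched gene. The points scatter around 1, and 34 of 37 bars cross it.

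The block called higher was exon 2 of Nnt, at 120193358 to 120193561, with 30 alignments in the positive and 13 in the negative library. Its ratio was 2.11 (1.07 to 4.4). The block called lower was a piece of the last exon of Paip1, at 120245949 to 120246106, with 12 and 23, a ratio of 0.476 (0.216 to 0.997). Neither call held under every alternative count: with each start position counted once there was no block called higher, and with blocks under 100 bases apart joined, or with median scaling, none was called lower.

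Over its exons Nnt had 507 alignments in the positive and 440 in the negative library, which is 3.95 and 3.75 APM per kb of exon. The ratio was 1.05 (0.924 to 1.20). The last exon, which lies at the 3′ end, had 130 and 153 alignments, which gives 0.776 (0.609 to 0.986). The other 16 exons together had 377 and 287, a ratio of 1.20 (1.03 to 1.4), and these 2 intervals do not overlap. With each start position counted once the last exon had 0.928 (0.694 to 1.24) and the others 1.18 (0.986 to 1.42), so both intervals included 1 and they overlapped. The split therefore depends on how alignments at 1 position are counted, and it was looked at after the values were seen. Of the 12 other exons with at least 20 alignments, 9 had a ratio above 1. Exon 1 fell below that minimum, with 3 and 10 alignments, a ratio of 0.274 (0.0484 to 1.06). The block over exon 1, at 120197657 to 120198006, had 14 and 23. Its ratio of 0.556 (0.264 to 1.13) was the lowest of the Nnt blocks with at least 20 alignments.

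Among the Nnt exons lying wholly in coding sequence, exon 3 had the highest level per kb in the positive library, 6.45 APM per kb against 4.24. It had 55 and 33 alignments, at a ratio of 1.52 (0.971 to 2.42). Exon 8 had 20 against 9 and the highest ratio of the wholly coding exons with at least 20 alignments, 2.03 (0.883 to 5.06). Exon 10 had 51 and 40 alignments, exon 12 had 40 and 29, and exon 13 had 32 and 27. All 5 of these intervals included 1. The reference strain C57BL/6J, from which mm9 was built, carries a deletion of several Nnt exons, so reads from those exons have no place in these tracks, and the cells' own Nnt alleles were not typed here. Exon numbers here count the 17 exons of the GENCODE M21 transcript Nnt-202. They need not equal the numbers used for the full gene.

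Paip1 had 439 alignments in its exons in the positive and 446 in the negative library, or 4.64 and 5.17 APM per kb. The ratio was 0.899 (0.786 to 1.03). Its most covered exon per kb lying wholly in coding sequence was exon 2, with 88 and 81 alignments, or 14.0 and 14.1 APM per kb. Exon 4 had 40 and 49 alignments and exon 8 had 32 and 38, and both intervals included 1. The last exon had a ratio of 0.813 (0.620 to 1.07) and the other 10 exons 0.930 (0.796 to 1.09), and these intervals overlap. Exon 9 has 55 bases and held no alignment in either library, since an ungapped alignment of 72 bases cannot lie inside it.

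The gene 4833420G17Rik had 399 and 375 alignments in its exons, or 3.16 and 3.25 APM per kb, with a ratio of 0.971 (0.842 to 1.12). Its longest exon lying wholly in coding sequence, exon 5 with 647 bases, had 123 and 105 alignments, for a ratio of 1.07 (0.818 to 1.4). Its last exon had 53 and 40, a ratio of 1.21 (0.787 to 1.87). Only 2 of its 12 exons of at least 72 bases had both edges within 8 bases of a block, against 13 of 17 in Nnt and 6 of 10 in Paip1. In 4833420G17Rik a smaller share of the alignments in the span lay inside exons than in Nnt or Paip1.

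**Figure D3:**
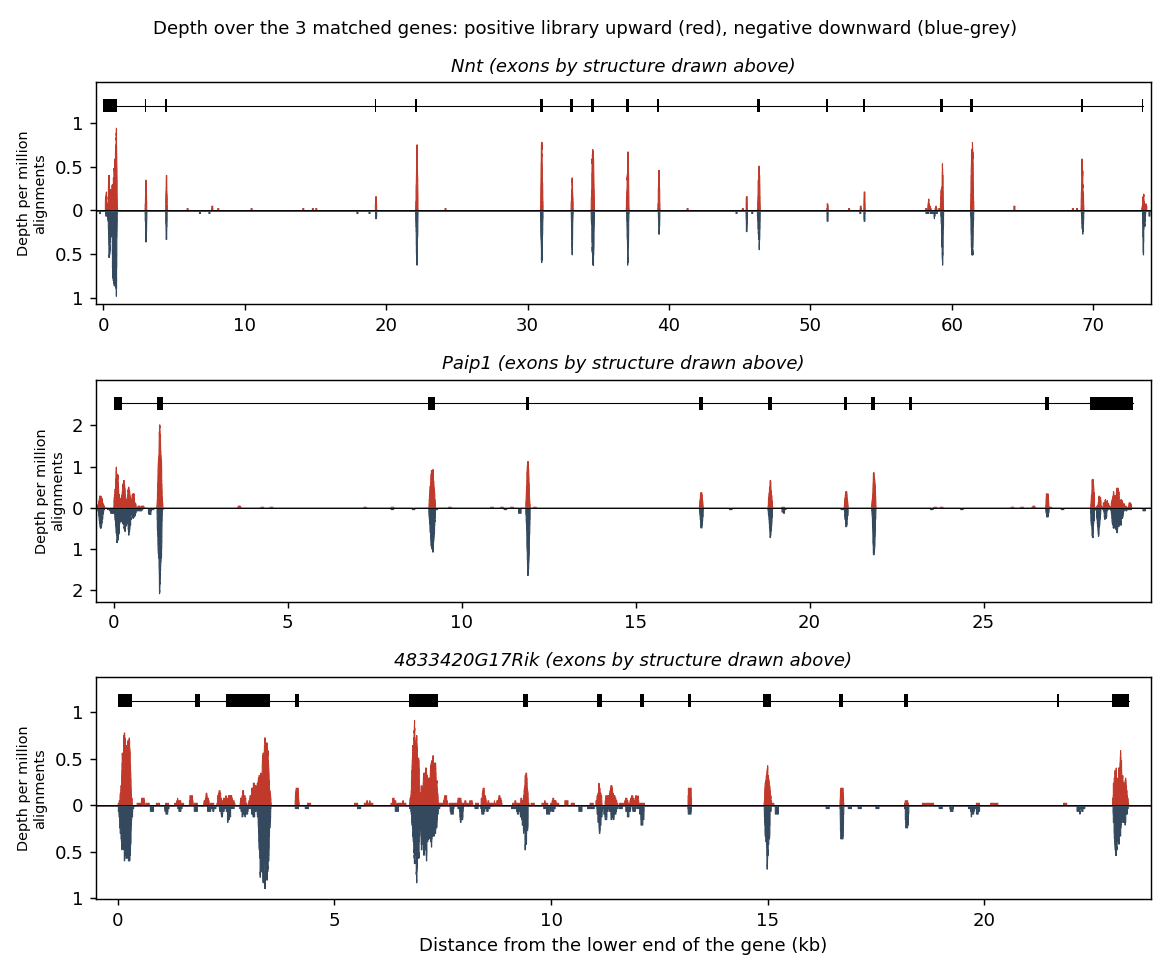
Depth per 1000000 alignments over each matched gene against the distance from its lower end in kb, with the positive library upward, the negative library downward and exons as boxes above. Depth peaks lie under nearly every exon of Nnt and Paip1, while 4833420G17Rik also has low coverage between exons.

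**Figure D4:**
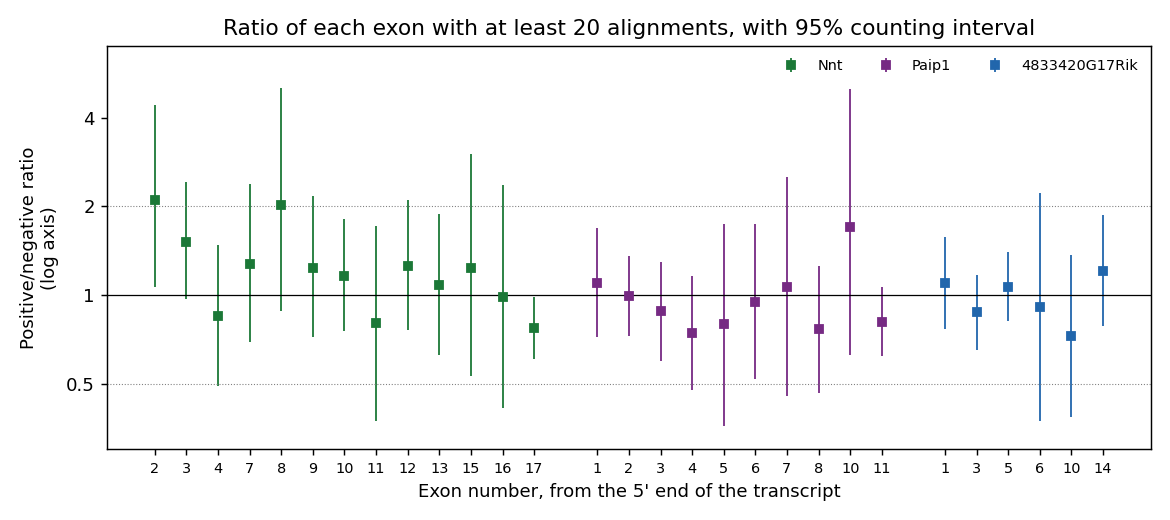
Ratio of the positive to the negative share (log axis) for each exon with at least 20 alignments, numbered from the 5′ end, with 95% counting intervals. Of the Nnt exons drawn, exons 2, 3 and 8 have the highest ratios and exon 17 the lowest. Only the intervals of exons 2 and 17 leave out 1. Exon 1 of Nnt has too few alignments to be drawn.

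Outside the 3 spans lay 130 and 136 alignments, which makes a ratio of 0.873 (0.681 to 1.12). The largest block there apart from the repeated one was at 120217248 to 120217451, just before the Paip1 span used here. In it 17 stood against 22, for a ratio of 0.705 (0.352 to 1.39). The best placement of another Paip1 transcript, Paip1-202, starts at 120217407, inside this block. After the last matched gene, 9388 bases held 19 and 20 alignments. Within these, a block at 120281439 to 120281820 had 3 alignments in the positive and 12 in the negative library, too few for the rule.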

How the data were processed

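Both libraries were analysed, 1 per sorted population. The authors deposited 1 coverage signal per library, the number of aligned reads over each base, not scaled to depth. The submitters' processing notes name Bowtie and mm9. Its settings and version: not given in the sources used here.

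Alignments of 72 bases were decoded from the signal and counted by start with Python 3.11.15, numpy 2.4.6 and scipy 1.17.1. The decoding, the size rule and the exon search were tested on simulated data. For the exon search this asked only whether a planted exon chain was found again. How often a wrong gene would pass the naming rule was not tested. For the size rule only calls at 4-fold were tested, on simulated windows with counting error alone. The 2-fold rule was not tested on simulated data. Blocks were named for the most alignments and for the highest and lowest intervals.

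The members and lists were chosen with earlier results of these data known. The naming rule first written asked that at least 2 block lengths and their distances equal those of a transcript. No exon of the 3 genes has a block of exactly its length, so that rule was set aside for a tolerance. The tolerant criterion was then changed 4 times after the genes it named had been seen: exons holding alignments, share of edges, number of edges, edges with alignments inside, and last a wider edge of 8 bases with 5 bases of overhang. Gene names are therefore descriptions of fit and not tested assignments.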

Additional observations from a re-analysis of the deposited data

How the results depend on the processing

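The ratio of the region stayed within its interval under all 5 alternatives, from 0.978 to 1.03. So did all 60 recomputed ratios of the 15 named blocks. For the exons of the 3 genes, 9 of 9 did (alternatives chosen after seeing the data). Leaving out repeats changed no block ratio and median scaling (factor 0.994) hardly could, so neither tests the blocks. An interval can still come to include 1, as for Nnt's last exon and its other exons with each start position counted once. Counts of calls are small and moved. With 2 kb windows, 1 of 33 was called 2-fold higher and 1 lower, beside 3.86% and 1.31% of the genome's windows. For blocks, a minimum of 50 alignments gave 0 higher and 0 lower of 20, beside 1.58% and 0.68%. A minimum of 5 gave 2 higher and 3 lower of 65, beside 3.81% and 2.51%, and at 4-fold 1 higher and 2 lower, beside 2.49% and 1.61%. Counting each start position once gave 0 higher. Joining blocks, or median scaling, gave 0 lower. The cause was not tested.

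The number of genes named by exon structure depended strongly on the criterion, and the criterion used was the last of 5 tried, chosen after seeing the data. The criterion used named 3 genes. The rule first written, with equal lengths, was checked only on these 3 genes as placed, and none met it. The first tolerant version named 7 (also Arrdc3, Btn2a2, Ctsl and Rnf44), the share of edges 2 (Nnt and Paip1), 8 edges within 5 bases 13, and the same with over 50% inside 3. Edges within 8 bases alone, computed for comparison, named 37. Nnt and Paip1 were named by each of the tolerant versions, 4833420G17Rik by all but the share of edges. All versions used the same blocks, and the cut for the share of edges equalled the highest share of any other gene.

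No paired analysis was possible because there is just 1 library of each kind. Depth limits single blocks: 105 of 217 held 1 alignment.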
